A study of Mus musculus with 3 samples.

Results

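The genes described here are 10 members of the E2F network, chosen by symbol from the 46078 genes of the deposited table. They are the E2F factors E2f1, E2f2, E2f3, E2f5, E2f6, E2f7 and E2f8, the DP partners Tfdp1 and Tfdp2, and the pocket protein gene Rb1. Each symbol matched 1 gene, and all 10 had a mean of at least 1 FPKM (fragments per kilobase of exon, scaled to the reads counted in the library) over the libraries. RNA sequencing was done on RAW 264.7 cells, a mouse macrophage line raised from a tumour induced by Abelson murine leukemia virus. There were 3 libraries, 1 for control cells, 1 for cells given 0.5 mM hydroxyurea (HU), and 1 for cells given that dose of HU together with gold nanocages. RNA was taken after 12 hours. The nanocage dose is not stated. A library of cells given nanocages without HU was not analysed here, so the effect of the nanocages alone cannot be told apart from their effect in HU.

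E2F factors bind DNA at the promoters of genes needed for DNA synthesis and division. E2F1, E2F2 and E2F3 are activators that pair with a DP protein and are held inactive by the retinoblastoma protein RB1 until cyclin-dependent kinases phosphorylate it. E2F5 is a repressor that works with the pocket proteins p107 and p130, and E2F6 is a repressor that lacks a pocket protein binding region and acts with Polycomb group proteins. E2F7 and E2F8 are atypical repressors that bind DNA without a DP partner and limit the same genes that the activators switch on, among them the activator genes. HU depletes deoxyribonucleotides and stalls replication forks, and E2f7 is known as a target of p53, the factor activated by DNA damage.

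Promoter sequences were available for 8 of the 10 genes, as 12 RefSeq windows of 300 bases on GRCm38.p6, and 3 are shown because, of the genes with a match to the E2F consensus, these had the highest ratios of HU to control. Each window runs from 250 bases before to 50 bases after the annotated start and is written 5′ to 3′ on the strand of the gene. Capitals mark an exact match to the E2F consensus on either strand, searched as TTTCCCGC, TTTCGCGC, TTTGCCGC and TTTGGCGC, or to the CHR element TTTGAA, which is known from genes of late cell cycle.
E2f7, chr10:110745189-110745488, plus strand: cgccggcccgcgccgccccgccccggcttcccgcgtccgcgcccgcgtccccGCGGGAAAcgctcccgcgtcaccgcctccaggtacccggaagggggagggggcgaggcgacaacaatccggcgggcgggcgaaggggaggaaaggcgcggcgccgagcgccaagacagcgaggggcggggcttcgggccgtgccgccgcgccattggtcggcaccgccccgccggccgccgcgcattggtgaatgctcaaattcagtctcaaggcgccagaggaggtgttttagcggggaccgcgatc
E2f3, chr13:29986014-29986313, minus strand: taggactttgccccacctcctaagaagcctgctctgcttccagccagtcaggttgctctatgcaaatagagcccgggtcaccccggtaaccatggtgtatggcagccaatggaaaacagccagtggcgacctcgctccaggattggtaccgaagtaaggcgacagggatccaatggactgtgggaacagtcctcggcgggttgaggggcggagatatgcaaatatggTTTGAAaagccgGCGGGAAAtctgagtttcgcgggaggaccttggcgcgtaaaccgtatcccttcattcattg
E2f2, chr4:136172024-136172323, plus strand: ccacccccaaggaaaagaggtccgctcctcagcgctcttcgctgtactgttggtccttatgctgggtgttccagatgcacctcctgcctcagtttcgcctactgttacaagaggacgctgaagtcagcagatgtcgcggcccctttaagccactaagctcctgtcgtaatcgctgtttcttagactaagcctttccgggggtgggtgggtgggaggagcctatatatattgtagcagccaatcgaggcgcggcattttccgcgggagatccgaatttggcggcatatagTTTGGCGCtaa
In E2f7 the match lies on the opposite strand and its leftmost base is 198 bases before the start. In E2f3 the capitals mark a CHR match 23 bases before the start and an E2F match on the opposite strand 11 bases before it. In E2f2 the E2F match begins 39 bases after the RefSeq start, which itself lies 120 bases upstream of the outermost GENCODE start. Tfdp1 holds an E2F match too, 43 bases before the first of its RefSeq starts, and E2f8 holds a CHR match 20 bases before its start. So 4 of the 8 genes had an E2F match in at least 1 window, beside 2.26% of all 32851 windows and 4.29% of the 9690 windows with at least 60% G and C. A CHR match occurred in at least 1 window of 3 of the 8 genes, the third being E2f2 at a second start inside the gene, beside 17.9% of all windows and 5.79% of those rich in G and C. The shares are per window, whereas the counts are per gene over 12 windows, so they are not on the same scale. The E2f2 windows (54.7% and 56.7% G and C) and the matching E2f3 window (55.3%) are below the cut of 60%. The RefSeq start used for E2f1 lies 466 bases inside the gene as GENCODE draws it, and its window holds neither motif, which says nothing of the promoter upstream. The Tfdp2 windows belong to starts at least 62430 bases inside that gene. These matches are letters in the sequence, and no binding was measured.

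The libraries held 14990564 (control), 20057329 (HU) and 18644333 (HU plus nanocages) counted reads, and the rarest of the 10 genes had 316 to 359 reads. All 9 macrophage markers examined, such as Lyz2, Csf1r and Cd68, were expressed, whereas none of the markers of T cells, B cells, fibroblasts, granulocytes or epithelium reached a mean of 1 FPKM. Ratios between libraries are ratios of CPM (counts scaled to the summed count of the library), each with an exact Clopper-Pearson 95% interval from the reads of both libraries. With 1 library per group there is no replicate check, no p-value was computed, and the intervals cover counting error only. Genes whose interval lay wholly on 1 side of 1 are called above or below counting error, and these calls compare libraries, not conditions. A gene with more reads is called at a smaller ratio, and the shares given for all genes were not matched for reads.

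In control cells Tfdp1 was far the most abundant of the 10 genes per length, and Tfdp2 the least. Tfdp1, which encodes the main DP partner, stood at 216.3, 230.6 and 238.9 FPKM in control, HU and HU plus nanocages, at percentile 98.2 to 98.4 of the genes with a mean of at least 1 FPKM. Tfdp2 had 1.82, 1.45 and 1.74 FPKM in the same order, so Tfdp1 made up 99.2%, 99.4% and 99.3% of the DP message per length. The value for Tfdp2 is divided by 14029 exonic bases and that for Tfdp1 by 1700. On CPM, which is not per length, Tfdp1 had 367.7, 392 and 406.1 of 393.2, 412.3 and 430.5 for both genes. By that measure E2f5 (23.0) lay below Tfdp2 (25.5) in control. The products of the members E2f1, E2f2, E2f3, E2f5 and E2f6 need a DP partner. Tfdp1 alone was at 2.92, 2.55 and 2.56 times the summed FPKM of these members. That sum leaves out E2f4, a repressor E2F gene that is not among the 10 and had 87.8, 84.0 and 81.9 FPKM. The sum itself was 74.1, 90.3 and 93.3 FPKM, so the ratio would be lower with E2f4 included.

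The order of levels per length in control was Tfdp1, E2f1, E2f6, E2f8, E2f5, E2f3, E2f2, Rb1, E2f7 and Tfdp2. Of the neighbours in that order, E2f6 and E2f8, E2f5 and E2f3, and Rb1 and E2f7 did not differ beyond counting error. In HU, E2f8 stood above E2f6, E2f3 above E2f5 and E2f7 above Rb1. The first of these pairs was still within counting error (1.01-fold, 0.942 to 1.09), whereas E2f3 was at 1.67 times E2f5 (1.49 to 1.87) and E2f7 at 1.17 times Rb1 (1.07 to 1.29). The order with nanocages was the same as in HU alone.

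**Figure D1:**
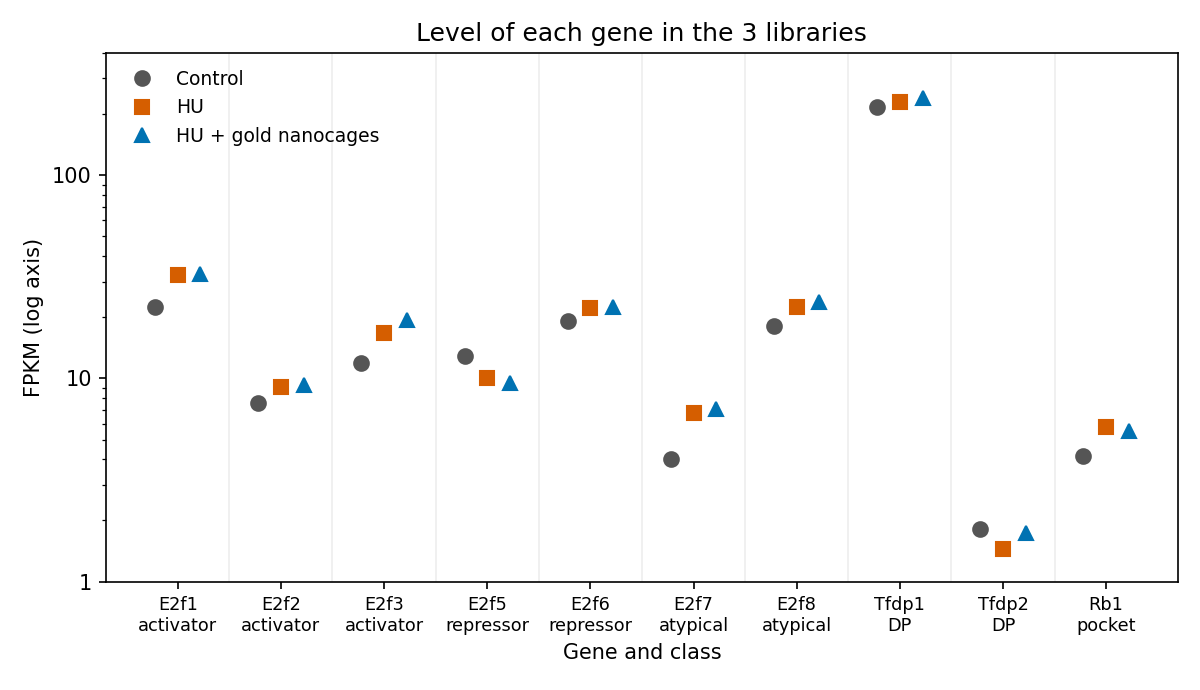
FPKM on a log axis of each gene in the 3 libraries, with 1 point per library and the class of the gene under its name. Tfdp1 lies at 216.3 FPKM or more and Tfdp2 at 1.82 FPKM or less in every library, and for 8 of the 10 genes the control point is the lowest.

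HU against control asks how the library of HU cells differed from that of control cells. E2f7 differed most, at 1.68 times its control level, followed by E2f1, E2f3 and Rb1 at 1.38 to 1.43 times. E2f8, E2f2, E2f6 and Tfdp1 were higher by smaller ratios, and E2f5 and Tfdp2 were lower. In all, 8 of 10 genes were above counting error, beside 18.7% of the 10849 genes with a mean of at least 1 FPKM, and 2 were below it, beside 20.1%. A ratio of 1.5 was reached by E2f7 alone, 1 of 10 genes, beside 4.53% of all genes that were as much higher, while no member was 1.5-fold lower, beside 3.12%. The median log2 ratio of the 10 genes was 0.28, against -0.01 for all genes, whose quartiles were -0.13 and 0.13. In a culture sequenced in bulk, more message per cell and more cells that carry the message cannot be told apart.

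Among the activators, E2f1 had 1067, 2047 and 1914 reads in the control, HU and nanocage libraries, or 22.6, 32.4 and 32.6 FPKM. Both treated libraries were thus above the control by a like amount, and HU was 1.43-fold higher than control (1.33 to 1.55). E2f1 is the founding activator and can also switch on death genes. E2f3, whose long and short forms arise from separate starts that a count per gene does not separate, was at 12.0, 16.7 and 19.5 FPKM, with 859, 1610 and 1740 reads. It was 1.40-fold higher in HU (1.29 to 1.52), and here the library with nanocages was the highest. E2f2, the third activator, was at 7.60, 9.05 and 9.29 FPKM and 1.19-fold higher in HU (1.07 to 1.33). The reads of E2f1 relative to E2f2 were 1.20 times those in control (1.06 to 1.37), an interval that includes 1 once widened for all 45 pairs of the 10 genes (0.968 to 1.495).

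Of the repressors, E2f5 and E2f6 lay on opposite sides of the control. E2f5 had 345, 359 and 316 reads and 12.9, 10.0 and 9.51 FPKM, lower in both treated libraries, and was 1.29-fold lower in HU (1.11 to 1.495). E2f6 had 19.1, 22.1 and 22.5 FPKM and was 1.16-fold higher in HU (1.05 to 1.28). Their relative reads differed by 1.49-fold (1.25 to 1.78; 1.11 to 2.01 when widened for 45 pairs). E2f5 shares 26 exonic bases with 1810022K09Rik on the other strand. That gene was 0.988 times its control level in HU (0.855 to 1.142), and the counting of reads in the shared bases is not stated.

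Both atypical genes were higher in HU, by unequal amounts. E2f7 had 543, 1220 and 1192 reads and 4.02, 6.75 and 7.10 FPKM in control, HU and HU plus nanocages. Both treated libraries were well above the control, and the ratio of HU to control was 1.68 (1.52 to 1.86). E2f8, which encodes its partner in heterodimers, had 1485, 2442 and 2418 reads and 18.2, 22.4 and 23.8 FPKM, a ratio of 1.23 (1.15 to 1.31). The reads of E2f7 relative to E2f8 were 1.37 times those in control (1.21 to 1.54; 1.12 to 1.67 when widened for 45 pairs). E2f8 remained the more abundant per length, at 4.53 times E2f7 in control, 3.31 times in HU and 3.36 times with nanocages. E2f7 lies on chromosome 10 at 110745439 to 110787384 and E2f8 on chromosome 7 at 48866429 to 48881596 of mm10. On the other strand E2f8 shares 610 exonic bases with Gm2788, which had 5, 9 and 10 reads. E2f7 shares 86 with 1700020G17Rik, which had 0, 0 and 3 reads. How reads in these bases were counted is not stated.

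Rb1, whose product binds and silences the activators, had 376, 695 and 619 reads and 4.17, 5.76 and 5.52 FPKM. It was 1.38-fold higher in HU (1.22 to 1.57). Rb1 shares 408 exonic bases with Lpar6, a receptor gene that lies within it on the other strand, and 488 with Rcbtb2. In HU, Lpar6 was 1.52-fold (1.24 to 1.88) and Rcbtb2 1.28-fold (1.06 to 1.55) higher on at most 304 reads each, and because the strand setting is not stated, the part of shared reads in the value for Rb1 was not tested. E2f1 stood at 5.41 times Rb1 per length in control and 5.62 times in HU. Of the DP genes, Tfdp1 was 1.07-fold higher in HU (1.03 to 1.10), an interval kept narrow by 5512 and 7863 reads. Tfdp2, with 382 and 407 reads, was 1.26-fold lower (1.09 to 1.45).

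Over all 45 pairs of the 10 genes, the ratio of ratios excluded 1 for 34 pairs in HU against control and for 25 after the interval was widened for 45 pairs. This measure compares 2 genes within the same libraries and does not depend on how libraries are scaled. E2f7 was apart from E2f2, E2f6, E2f8, Tfdp1, Tfdp2 and E2f5 after widening, but not from E2f1 (1.17; 0.950 to 1.45), E2f3 or Rb1. E2f5 and Tfdp2, the pair of lower genes, did not differ from each other beyond counting error (1.02; 0.831 to 1.26).

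**Figure D2:**
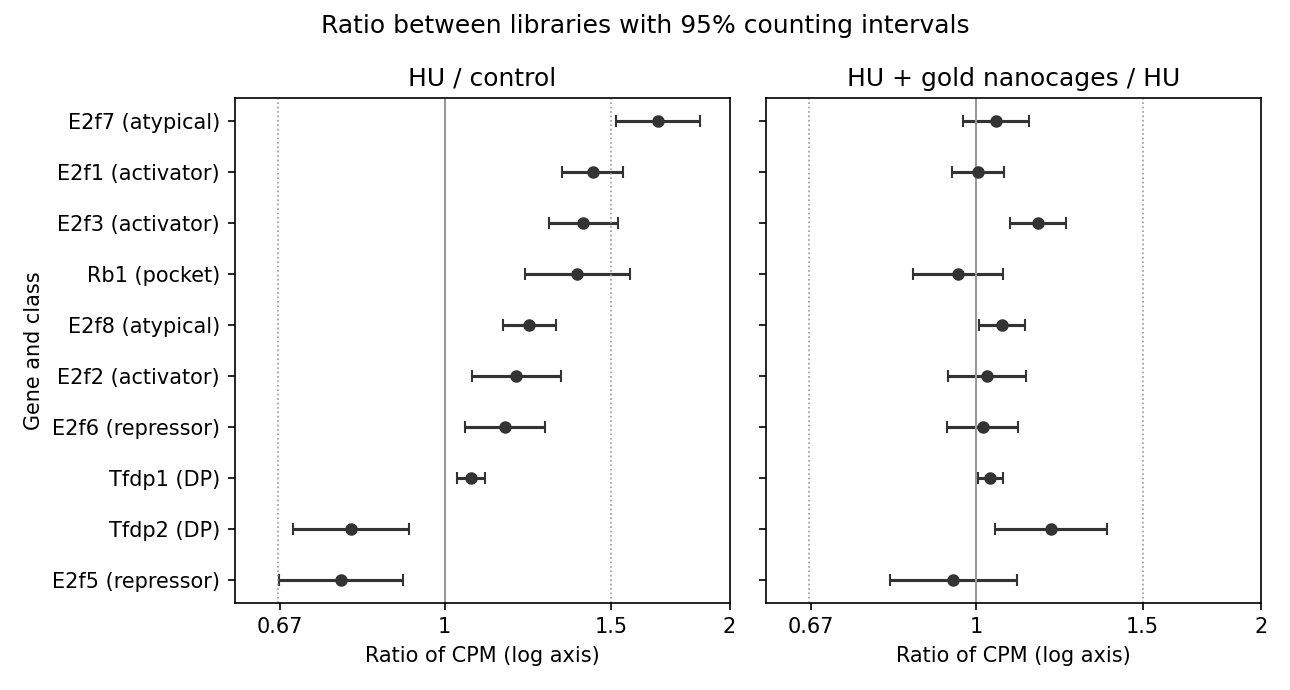
Ratio of CPM on a log axis for HU against control (left) and HU plus gold nanocages against HU (right), with 95% counting intervals from read counts, 1 library per condition. The solid line marks equal levels and the dotted lines a 1.5-fold difference; E2f7 alone lies past 1.5 in HU, and no gene does with nanocages added.

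By class, the activators and the atypical factors were higher in HU by nearly the same ratio, and the repressor pair was not. The summed CPM of E2f1, E2f2 and E2f3 was 165.6 in control and 226.5 in HU, 1.37-fold higher (1.30 to 1.44). E2f7 and E2f8 together were at 135.3 and 182.6 CPM, 1.35-fold higher (1.28 to 1.43). E2f5 and E2f6 together were at 69.2 and 71.4 CPM, with an interval that included 1 (1.03-fold, 0.952 to 1.12), a sum of 1 lower and 1 higher gene. The activator sum relative to the atypical sum was 1.01 times that in control (0.942 to 1.09), and relative to the repressor sum 1.33 times (1.21 to 1.46). Members of a class are different genes and not replicates of each other.

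Per length, the activators were at 42.1 FPKM in control, 58.2 in HU and 61.3 with nanocages, the repressors at 32.0, 32.1 and 32.0, and the atypical factors at 22.2, 29.1 and 30.9. Activators therefore made up 43.7%, 48.7% and 49.4% of the FPKM of the 7 E2F genes. The share of the repressors was 33.2%, 26.9% and 25.7%, and that of the atypical factors 23.1%, 24.4% and 24.9%. On summed CPM, which is not per length, the order of these classes was the opposite, with 18.7%, 14.9% and 14.1% for the repressors and 36.6%, 38.0% and 38.2% for the atypical factors. E2f4, a repressor that is not among the 10 genes, was more abundant than each of the 7 at 87.8, 84.0 and 81.9 FPKM. With it added to the repressors, an alternative chosen after its values were seen, the repressor share was 65.1%, 57.1% and 55.2%, and that of the activators 22.9%, 28.6% and 29.8%.

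**Figure D3:**
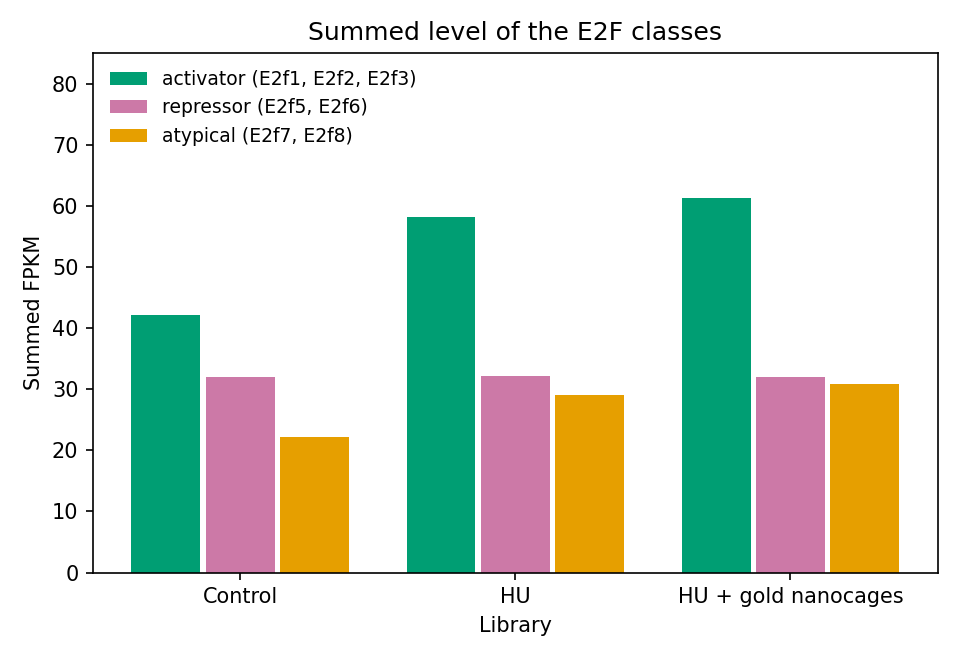
Summed FPKM of the activator, repressor and atypical E2F genes in each library, with no error bars since each bar is 1 library. Activator and atypical sums are higher in both treated libraries than in control, and the repressor sum lies near 32 FPKM in all 3.

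HU plus gold nanocages against HU asks how the library with nanocages differed from that of HU alone. The network was at nearly the same levels in both libraries. E2f3, Tfdp2, E2f8 and Tfdp1 were above counting error, 4 of 10 genes beside 8.35% of all genes, and none was below it, beside 7.78%. No member was 1.5-fold higher (1.36% of all genes were) or lower (1.32%). The median log2 ratio was 0.05 for the 10 genes and 0.00 for all genes. E2f3 was 1.16-fold higher (1.09 to 1.25) on 1740 against 1610 reads. Tfdp2 was 1.20-fold higher (1.05 to 1.38), which placed it at 0.956 times its control level (0.832 to 1.10). The HU library is shared with the comparison of HU to control. A lower Tfdp2 there and a higher Tfdp2 here are therefore not separate observations. E2f8 was 1.07-fold higher (1.01 to 1.13), and Tfdp1 1.04-fold (1.004 to 1.07).

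E2f1 (1.01-fold, 0.945 to 1.07), E2f7 (1.05-fold, 0.970 to 1.139), E2f2 (1.03-fold, 0.934 to 1.13), E2f6 (1.02-fold, 0.932 to 1.11), Rb1 (0.958-fold, 0.858 to 1.07) and E2f5 (0.947-fold, 0.812 to 1.11) were within counting error. Of 45 pairs of genes, 11 were apart, all with E2f3 or Tfdp2 as the higher gene, and none was after widening for 45 pairs. By class, the ratio was 1.07 for the activators (1.02 to 1.11), 1.06 for the atypical factors (1.01 to 1.11) and 0.999 for the repressors (0.927 to 1.08).

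HU plus gold nanocages against control shares the control library with the first comparison, so its values stand beside those above as a description. E2f7 was 1.77-fold higher (1.59 to 1.96), E2f3 1.63-fold (1.5 to 1.77), E2f1 1.44-fold (1.34 to 1.56), Rb1 1.32-fold (1.16 to 1.51), E2f8 1.31-fold (1.23 to 1.40) and E2f2 1.22-fold (1.10 to 1.36). E2f5 was 1.36-fold lower (1.16 to 1.59). In all, 8 of 10 genes were above counting error, beside 19.6% of all genes, and 1 was below, beside 20.1%. E2f7 and E2f3 were at least 1.5-fold higher, 2 of 10 beside 5.28%, and none was 1.5-fold lower, beside 3.24%.

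Genes that E2F factors are known to control were examined as lists, which were chosen with earlier results of these data known. Their counts are therefore a description. Of 42 genes of the entry into and passage through S phase, 31 were above and none below counting error in HU, beside 18.7% and 20.1% of all genes, with a median log2 ratio of 0.26. Ccne2 (2.23-fold, 2.05 to 2.42) and Ccne1 (1.55-fold, 1.43 to 1.69), which encode the E cyclins that drive phosphorylation of RB1, Msh6 of mismatch repair (1.76-fold, 1.68 to 1.85) and the licensing gene Cdc6 (1.55-fold, 1.45 to 1.66) were the 4 past 1.5-fold. At the other end, Brca1 (0.939-fold, 0.878 to 1.01), Rbl1 (0.981-fold, 0.926 to 1.04) and Rrm1 (0.986-fold, 0.955 to 1.02) were within counting error. In contrast, each of the 25 listed genes of mitosis known as targets of E2F or DREAM complexes was below counting error, beside 20.1% of all genes, and 17 were at least 1.5-fold lower, beside 3.12%, with a median of -0.77. Plk1 was 4.96-fold lower (4.52 to 5.45), Cenpf 4.02-fold (3.65 to 4.44) and Prc1 2.66-fold (2.49 to 2.84), while Aurkb was the nearest to control at 1.21-fold lower (1.136 to 1.28). The E2F members other than E2f5 thus lay on the side of the S phase list, and the part of a changed share of cells in each cell cycle phase was not tested. With nanocages added to HU, 3 of 42 S phase genes were above and 4 below counting error, and 5 of 25 mitotic genes were above and none below, beside 8.35% and 7.78% of all genes. The S phase counts are near those shares. The medians were -0.01 and 0.03.

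**Figure D4:**
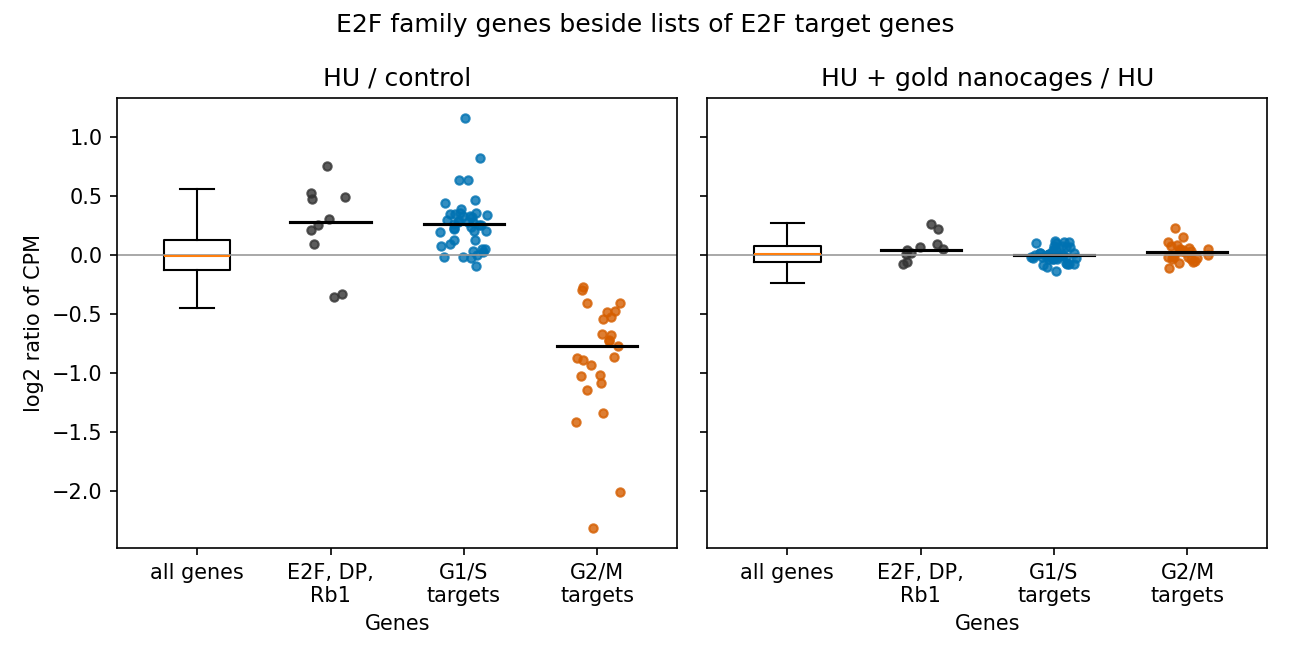
log2 ratio of CPM of the 10 genes, 42 S phase targets and 25 mitotic targets (points, with the median as a black bar), beside all genes with a mean of at least 1 FPKM (box from the lower to the upper quartile, whiskers from percentile 5 to percentile 95). In HU against control (left) the 10 genes have a median of 0.28 and the mitotic list one of -0.77; with nanocages added to HU (right) the medians of both lists and of the 10 genes lie within 0.05 of 0.

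The regulators upstream of RB1 did not share 1 direction. Of 8 expressed cyclin and kinase genes, 3 were above and 3 below counting error in HU, beside 18.7% and 20.1% of all genes. Beside the E cyclins, Cdk2 was 1.09-fold higher (1.02 to 1.16), whereas Ccna2 was 1.40-fold lower (1.32 to 1.48), Cdk6 1.18-fold lower (1.141 to 1.23) and the D cyclin gene Ccnd1 1.06-fold lower (1.03 to 1.09). Of 4 expressed inhibitor genes, Cdkn1a, which encodes p21 and blocks the kinases that act on RB1, was 6.54-fold higher (6.25 to 6.84). The other 3 were lower, namely Cdkn2d (2.80-fold, 2.40 to 3.28), Cdkn1b (1.32-fold, 1.20 to 1.46) and Cdkn2c (1.26-fold, 1.13 to 1.40). Cdkn2a, which encodes the p16 inhibitor of the D cyclin kinases, Cdkn2b and Cdkn1c were listed at 0 FPKM in all libraries.

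Among the other pocket proteins and DREAM subunits, Rbl2 stood out. Rbl2, which encodes p130, the pocket protein of resting cells, had 404, 1345 and 1244 reads and 3.87, 9.63 and 9.58 FPKM. It was 2.49-fold higher in HU (2.23 to 2.79), a larger ratio than that of any of the 10 genes. Its relative Rbl1, which encodes p107, was within counting error, as was E2f4 (0.957-fold, 0.909 to 1.01). As a list, 1 of 8 genes (Rbl2) above and 2 of 8 below counting error were near the shares of 18.7% and 20.1% among all genes. The lower genes were Lin52 (1.41-fold lower, 1.19 to 1.68) and Lin9 (1.19-fold lower, 1.05 to 1.35). Of 12 partners of E2F6 in its Polycomb complex, 4 were above and 1 below counting error, beside the same shares, with Rnf2 at 1.33-fold higher (1.22 to 1.44), Rybp at 1.25-fold higher (1.12 to 1.40) and Yaf2 at 1.31-fold lower (1.16 to 1.47). None of 10 germ line genes that E2F6 is known to repress reached a mean of 1 FPKM, a level reached by 10849 of all 46078 genes. Whether E2F6 has a part in this was not tested.

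The genes nearest to E2f7 across the 3 libraries were sought among 10223 genes with at least 100 reads, by distance in the log2 ratios of both treated libraries to control. They were Trafd1, at 1.69 and 1.77 times its control level, Pced1b (1.70 and 1.75), Tmem132a (1.67 and 1.80), Mtmr10 (1.71 and 1.74) and Tmtc3 (1.74 and 1.78). With 33 genes within a distance of 0.1, a pattern over 3 libraries singles out no small group. In the deposited annotation all 10 members carry the term transcription factor complex, as do 243 of 46078 genes. The term cell cycle is carried by 9 of 10, all but E2f5, and by 589 of 46078 genes. E2f5 carries the terms regulation of cell cycle and G1/S transition of mitotic cell cycle. E2f7 and E2f8 are the 2 genes annotated to positive regulation of DNA endoreduplication, and E2f1, E2f7 and Rb1 are the 3 annotated to negative regulation of transcription in the transition from G1 to S phase.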

How the data were processed

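RNA of 3 RAW 264.7 cultures was sequenced, 1 library per condition. The authors deposited whole-number read counts per Ensembl gene, not normalized, with the size of each gene in exonic bases, an other kind of value per the file headers. The deposited FPKM values equal the count divided by that size and by the summed count of the library. Per the submitters' processing notes, the tools included HISAT2 2.0.1 and HTSeq 0.6.1, the build was mm10, and strand setting and annotation release were not given in the sources used here.

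CPM were counts over the summed count, so 1 read stood for 0.0667, 0.0499 and 0.0536 CPM in control, HU and HU plus nanocages. Clopper-Pearson intervals were checked on counts simulated with counting error alone, so the check does not bear on variation between libraries. Reads carry no molecular identifiers. Pairs of genes were compared by conditional odds ratios with exact intervals, also at a level divided by 45. Coordinates came from GENCODE M21. Alternatives were scaling by TMM (edgeR 4.0.16), by median ratios (DESeq2 1.42.0) and without the 100 highest genes, pseudocounts of 1 and 0.1 FPKM, and other filters, with scipy 1.17.1. Named genes were the members, up to 3 highest and 3 lowest of each list by the ratio of HU to control, and the 5 nearest to E2f7; not all are printed. Overlapping genes and inhibitor genes at 0 were named outside that rule. Members and lists were chosen with earlier results of these data known.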

Additional observations from a re-analysis of the deposited data

How the results depend on the processing

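No paired analysis was possible because each group has 1 library, and for the same reason no replicate could be left out. Scaling by TMM, by median ratios or without the 100 highest genes moved all log2 ratios by at most 0.005, and under every scaling the 10 genes kept their side of 1 and their call against counting error. All 150 alternative values of single member ratios lay within the interval of the reported value. Of the counts over all genes, those at 1.5-fold moved by over 1.5 times with the filter on low values and the others did not. In HU against control they were 491 higher and 338 lower, 3564 and 2421 with no filter, and 204 and 133 at a mean FPKM of at least 5. For nanocages against HU the last 2 settings gave 2840 and 2755, then 21 and 17, and for nanocages against control 3985 and 2403, then 222 and 138. On summed CPM, which is not per length, the repressor share was 18.7%, 14.9% and 14.1% in control, HU and HU plus nanocages and the atypical share 36.6%, 38.0% and 38.2%. With E2f4 added, chosen after seeing the data, the activator share was 22.9%, 28.6% and 29.8%, the repressor share 65.1%, 57.1% and 55.2% and the atypical share 12.1%, 14.3% and 15.0%. Depth limits Tfdp2 and E2f5 most, whose intervals are the widest with that of Rb1.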
